A study of Allium sativum with 84 samples.

Results

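A pair of gene rows of chromosome 2 of garlic (Allium sativum), Asa2G00503.1 and Asa2G00253.1, was followed over bulb transcriptomes, because the study prints both IDs for a single AXR1-like gene. Its running text names the gene Asa2G00503.1, and so does, with an extra digit, a supplementary legend for its expression. Under this ID the study reports more transcripts in a cultivated group than in the other groups, and a negative association with clove number. Its legend for the associated chromosome region and for the haplotypes names the gene Asa2G00253.1. These are 2 of the 57561 rows in the expression table, chosen by ID alone, and both were among the 36007 genes that passed the filter of at least 1 FPKM in at least 4 accessions. FPKM counts fragments relative to the length of a gene and to the size of the library, so levels of the 2 rows can be set side by side.

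The data were 84 garlic accessions, all planted together on a research farm in Shandong, and enlarging bulbs were taken from each in the spring after planting. Each accession gave 1 library, no plant received a treatment, and the label that told accessions apart was the country or collection site. The labels place 68 accessions in China and 16 in 11 other countries. Shandong had 15 accessions, Xinjiang 9, Shanxi 6, Canada 5, Henan 4 and Hebei 4. The replicates of a site are therefore different accessions, and the labels give no genetic group. The table did not pair IDs with names, so the bulb tissue could not be checked against marker genes, and the name AXR1-like comes from the study.

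AXR1 of Arabidopsis is a subunit of the enzyme that activates the ubiquitin-like protein RUB (NEDD8 in animals). RUB is attached to cullins, which are the backbone of the SCF ubiquitin ligases through which auxin is perceived and Aux/IAA repressors are degraded. Arabidopsis mutants in AXR1 are resistant to auxin and grow more side shoots, so the gene is known as a repressor of bud outgrowth. A garlic bulb is made of cloves, which are swollen axillary buds.

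Both rows were detected in the bulbs of all 84 accessions and had nearly the same mean level, but Asa2G00503.1 was steady and Asa2G00253.1 varied widely. Asa2G00503.1 had a lowest level of 28.4 FPKM (the Israel accession), a median of 40.98 FPKM and a highest level of 89.6 FPKM (Xinjiang replicate 2), with a mean of 43.2 ± 11.9 FPKM (SD, n = 84). Asa2G00253.1 had a lowest level of 0.376 FPKM (the Japan accession), a median of 21.9 FPKM and a highest level of 239.5 FPKM (Sichuan replicate 2), with a mean of 42.6 ± 51.4 FPKM (SD, n = 84). The highest accession exceeded the lowest 3.16-fold for Asa2G00503.1 and 636-fold for Asa2G00253.1. Since these are bulk samples, fewer cells of a type and less RNA per cell cannot be told apart.

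**Figure D1:**
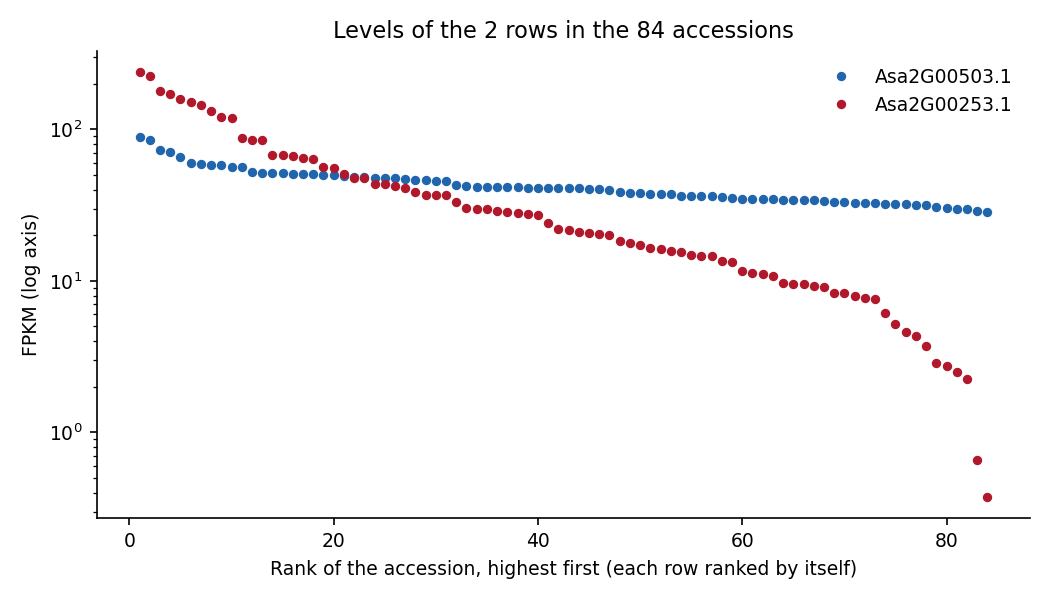
Level of each row in the 84 accessions, ordered from the highest to the lowest for each row by itself. The x axis is the rank, the y axis is FPKM on a log scale, and each point is 1 accession. Asa2G00503.1 runs from 89.6 down to 28.4 FPKM as a nearly level line, whereas Asa2G00253.1 runs from 239.5 down to 0.376 FPKM.

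Among all tested genes the rows lay near opposite ends of the order of spread. The SD of log2(FPKM + 1) was 0.35 for Asa2G00503.1, and 10.6% of the tested genes had a lower one. For Asa2G00253.1 it was 1.62, and 94.8% of the genes had a lower one, with a median over the tested genes of 0.64. The coefficient of variation on the FPKM scale was 27.5% and 120%, beside a median of 72.8% over the tested genes. By their mean levels the rows were alike, with 86.6% and 86.4% of the tested genes having a lower mean FPKM.

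Both spreads were far larger than read counting alone would give. The FPKM of both rows fell on steps of whole reads, which gave 573 to 2958 reads per library behind Asa2G00503.1 with a median of 905.5, and 4 to 4508 reads behind Asa2G00253.1 with a median of 254.5. Counting error at these depths would give a coefficient of variation of 3.15% and 4.52%, against the 27.5% and 120% measured. Relative depth differed up to 2.29-fold between libraries. On the log2 scale its Pearson r over the 84 accessions was 0.32 with Asa2G00503.1 and 0.13 with Asa2G00253.1, and its part in the levels was not tested.

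The tails of the 2 distributions differed in shape. Asa2G00503.1 exceeded 60 FPKM in 6 accessions, namely Xinjiang replicate 2 (89.6 FPKM), Gansu replicate 3 (85.3 FPKM), Canada replicate 3 (73.2 FPKM), Shanxi replicate 3 (71.4 FPKM), Sichuan replicate 2 (65.4 FPKM) and Gansu replicate 2 (60.3 FPKM), and had no comparable tail below. Asa2G00253.1 exceeded 100 FPKM in 10 accessions and lay under 5 FPKM in 9. The study's diversity index H', which is higher where accessions fill more expression classes evenly, was 2.58 for Asa2G00503.1 and 2.14 for Asa2G00253.1. H' scales each gene to its own spread, and 51.2% and 26.4% of the tested genes had a lower value, so it does not order the rows as the spread does.

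The 2 rows did not rise and fall together. Over the 84 accessions their Pearson r was -0.18 and their Spearman rho was -0.13 on the log2 scale. Asa2G00253.1 lay above Asa2G00503.1 in 26 accessions and below it in 58. The ratio of the 2 levels was lowest in Gansu replicate 3, at 0.00768 with 85.3 FPKM for Asa2G00503.1 and 0.655 FPKM for Asa2G00253.1. It was highest in Qinghai replicate 1, at 5.39 with 33.1 and 178.5 FPKM.

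**Figure D2:**
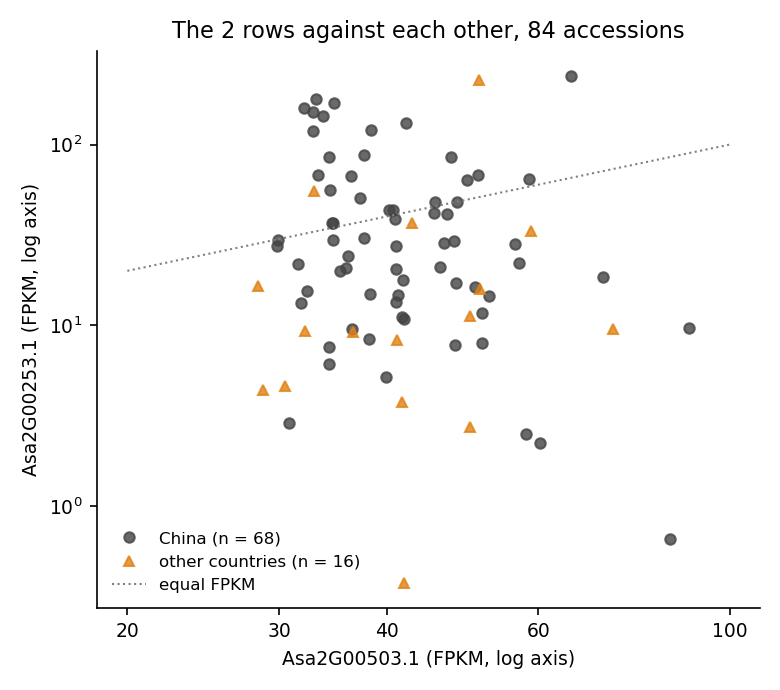
Level of Asa2G00253.1 (y axis, FPKM, log scale) against Asa2G00503.1 (x axis, FPKM, log scale), with 1 point per accession and the dotted line at equal FPKM. Circles are the 68 accessions from China and triangles the 16 from other countries. No slope is visible (Pearson r -0.18), 26 points lie above the dotted line, and 12 of the 16 triangles lie below the China median of 27.9 FPKM for Asa2G00253.1.

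The first comparison the labels allow is that of the country of collection. Asa2G00503.1 had nearly equal levels in both groups. In the 68 accessions from China its lowest, median and highest levels were 29.8, 40.8 and 89.6 FPKM, and in the 16 from other countries they were 28.4, 41.8 and 73.2 FPKM. The ranges overlapped almost entirely, with 6 of the 16 below the China median. The log2 change from China to other countries was -0.01 ± 0.10 (SE), with an adjusted p of 0.978 by limma, and its sign turned positive after median-ratio scaling (0.03).

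Asa2G00253.1 was lower in most accessions from other countries, but the difference did not pass the threshold. Its lowest, median and highest levels were 0.655, 27.9 and 239.5 FPKM in China, and 0.376, 9.36 and 226.7 FPKM in other countries. The groups overlapped, and 12 of the 16 accessions lay below the China median. The means were 46.1 ± 50.3 FPKM (SD, n = 68) and 28.0 ± 55.0 FPKM (SD, n = 16). By limma the log2 change was -1.17 ± 0.43 (SE), with an unadjusted p of 0.00779 and an adjusted p of 0.105, in a comparison that called 1323 of 36007 genes (3.67%). The high value in the other countries was that of Canada replicate 5, and without this accession the change was -1.44 with an adjusted p of 0.0342, which passes the threshold. Of the 84 limma fits that each left out 1 accession, only this fit passed it, and the adjusted p reached 0.207 in the others.

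Whether the country change differed between the rows was tested on their log2 ratio. The ratio of Asa2G00253.1 to Asa2G00503.1 had a mean of -0.59 in China and -1.75 in other countries on the log2 scale, a difference of -1.16 ± 0.47 (SE) with p = 0.0155 by a two-sided permutation test over the 84 accessions. Leaving out each accession in turn gave p between 0.00324 (without Canada replicate 5) and 0.0485 (without the Japan accession) in the same permutation test. This p is not adjusted over genes, and the pair was taken up with earlier results of these data known.

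No difference of either row between the 6 best sampled sites exceeded the spread within a site. For Asa2G00503.1 the site means ran from Shanxi (48.6 FPKM) over Canada (47.2), Hebei (44.1), Xinjiang (42.5) and Shandong (42.2) to Henan (38.4 FPKM). No neighbouring pair in this order passed the threshold, with the smallest p at 0.873 by exact permutation tests adjusted over the 5 pairs, and p was 0.105 for Shanxi against Henan (exact permutation test). By limma the F test over the 6 sites gave an adjusted p of 0.976, in a fit that called 15 of 33913 genes (0.0442%).

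For Asa2G00253.1 the order of site means was another, from Hebei (69.1 FPKM) over Canada (61.5), Xinjiang (58.98), Shandong (37.3) and Shanxi (32.5) to Henan (19.7 FPKM). The 4 Hebei accessions had 27.3, 63.3, 64.9 and 120.8 FPKM, and the 4 Henan accessions 7.59, 8.36, 20.8 and 42.0 FPKM. Hebei thus lay mostly above Henan, with 1 Hebei accession inside the Henan range, and the exact permutation test of these extremes of the order gave p = 0.0571 for 4 against 4. These sites were picked by their means, as were Shanxi and Henan above, and p was not adjusted for that choice. Neighbouring sites had an adjusted p of at least 0.480 (exact permutation tests), and the F test of limma an adjusted p of 0.856.

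The mean of Canada rested on a single accession. Its 5 accessions had 4.35, 9.48, 11.3, 55.6 and 226.7 FPKM of Asa2G00253.1, so 3 of them lay far below the site mean of 61.5 FPKM and even below the Shandong median of 28.7 FPKM. The log2 change against Shandong was -0.13 ± 0.68 (SE) with a limma adjusted p of 0.946, and it was -0.94 without replicate 5 (adjusted p = 0.583). Of Asa2G00503.1 the Canada accessions had 28.8, 32.9, 49.9, 51.1 and 73.2 FPKM, with no such gap. The Canada contrast called 459 genes (1.35%), and neither row was among them. Accessions from Canada had a lower log2 level than Shandong over all tested genes (median -0.17), which median-ratio scaling brought to -0.03. The change of Asa2G00253.1 then turned to 0.06, and the share of called genes that were higher in Canada went from 25.5% to 77.4%.

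In the other site contrasts against Shandong neither row was called, and neither was any other gene (0%). At an unadjusted p under 0.05, limma had 10.98% of the genes in the Xinjiang contrast, 2.46% in that of Shanxi, 1.17% in that of Hebei and 0.537% in that of Henan. Analysis of variance without moderation called 0 genes in each as well. The largest of these changes in Asa2G00253.1 was that of Hebei, at 1.20 ± 0.74 (SE) on the log2 scale with an adjusted p of 1. Xinjiang had 9 accessions from 9.67 to 159.2 FPKM of Asa2G00253.1 with a median of 29.7 FPKM, and Shandong 15 from 2.51 to 152.5 FPKM with a median of 28.7 FPKM, so both sites held accessions of very different levels.

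**Figure D3:**
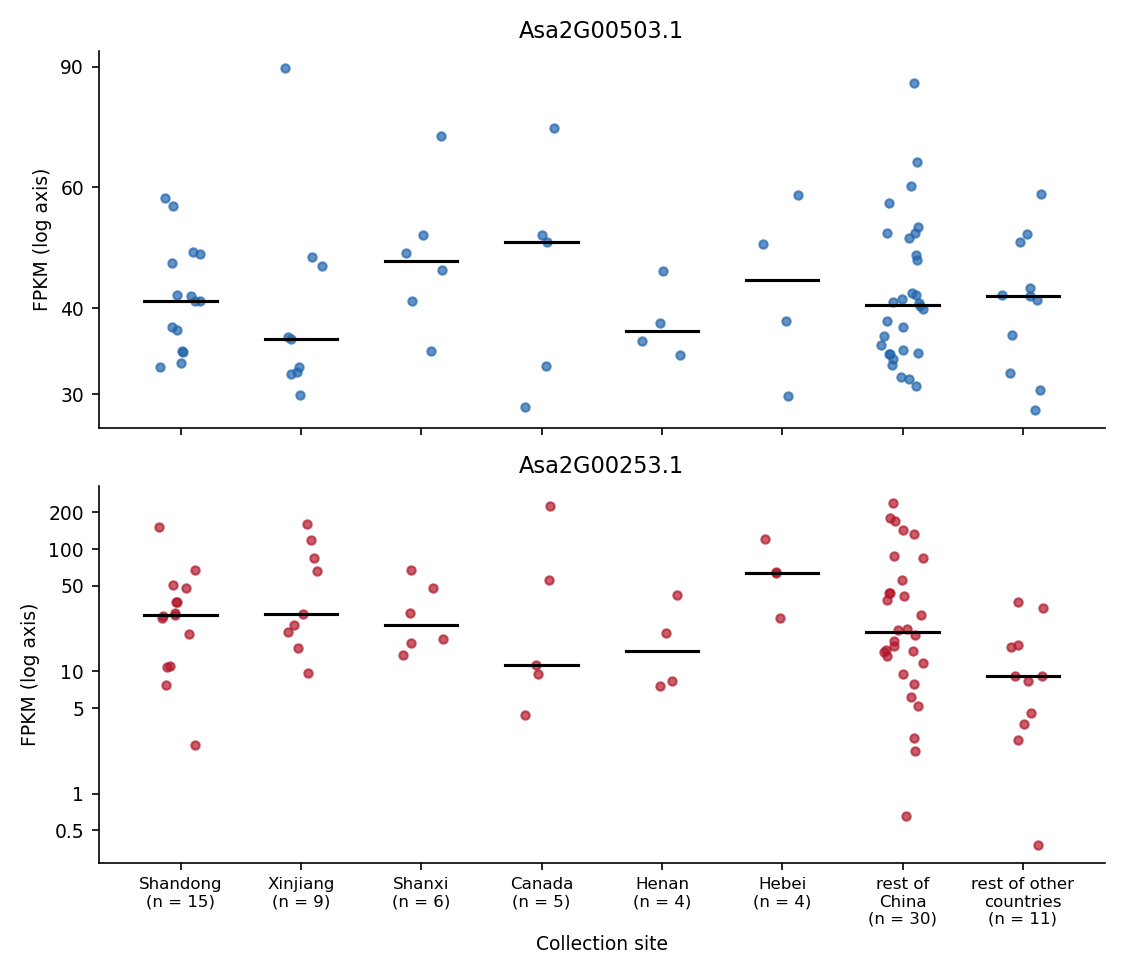
Levels of both rows by collection site, with 1 point per accession and a black bar at the median of each group. The y axes are FPKM on a log scale, and the last 2 groups pool the sites and countries with fewer accessions. Within single sites Asa2G00253.1 spans most of its range (Shandong from 2.51 to 152.5 FPKM), and the Canada accession at 226.7 FPKM and the Xinjiang accession at 89.6 FPKM of Asa2G00503.1 stand apart from their groups.

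Smaller sites held the same contrast among accessions. The 3 Gansu accessions had 0.655, 2.24 and 171.0 FPKM of Asa2G00253.1 and 85.3, 60.3 and 34.8 FPKM of Asa2G00503.1, in this order of accessions. The 3 Sichuan accessions had 14.9, 19.9 and 239.5 FPKM of Asa2G00253.1. Both Greece accessions were alike, with 9.18 and 9.23 FPKM of Asa2G00253.1.

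The levels of both rows went with the position of an accession among the columns of the deposited table. Expression over all genes broke most strongly along the column order after the column in position 23 and, within the part before it, after position 7, which gave blocks of 7, 16 and 61 accessions. The labels do not say what the column order stands for. Because the breaks were placed on the whole expression table, levels by block are a description. In the first block (6 accessions from China and Canada replicate 5) Asa2G00253.1 ran from 67.99 to 239.5 FPKM with a median of 171.0 FPKM, and all 7 accessions lay above the overall median. In the second block it ran from 0.376 to 63.3 FPKM with a median of 9.58 FPKM, and 3 of 16 lay above the overall median. The first and the second block thus did not overlap in this row. The share of all genes that separate these blocks was not counted, so this is not shown to be particular to Asa2G00253.1. The third block, from 3.74 to 159.2 FPKM with a median of 24.1 FPKM, overlapped with both.

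Asa2G00503.1 had the opposite order of the first blocks. Its medians were 34.8 FPKM in the first block, 50.6 FPKM in the second and 40.3 FPKM in the third, and 13 of the 16 accessions of the second block lay above the overall median. Within the third block alone the SD of log2(FPKM + 1) was 0.26 for Asa2G00503.1 and 1.25 for Asa2G00253.1. The wide variation of Asa2G00253.1 was therefore present among these 61 accessions by themselves.

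**Figure D4:**
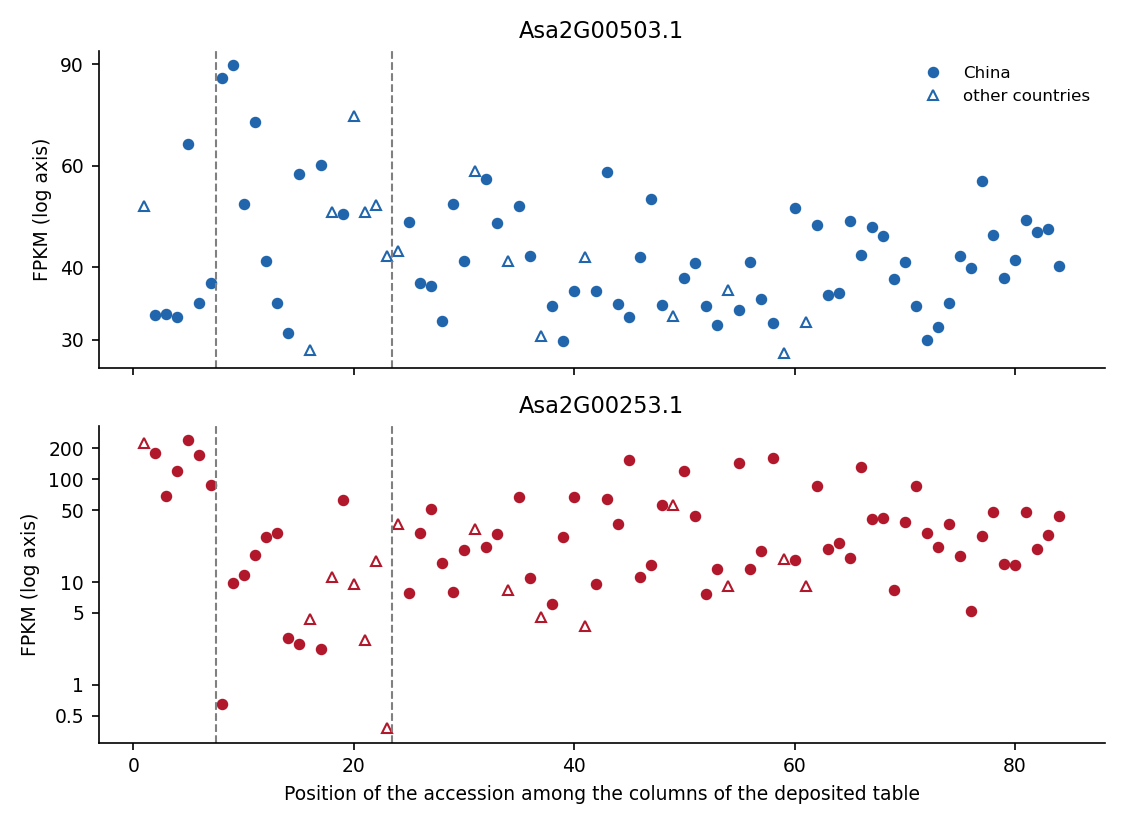
Levels of both rows (y axes, FPKM, log scale) by the position of the accession among the columns of the deposited table (x axis), with filled circles for China and open triangles for other countries. Dashed lines mark the strongest breaks in the expression of all genes, after positions 7 and 23. All 7 accessions left of the first line have at least 67.99 FPKM of Asa2G00253.1, and the 16 between the lines reach at most 63.3 FPKM. The share of all genes that separate these blocks was not counted.

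The country comparison was repeated within the blocks. In the third block, with 52 accessions from China and 9 from other countries, Asa2G00253.1 had medians of 27.8 and 9.23 FPKM and a log2 change of -0.98 (limma adjusted p = 0.171). In the second block, with 10 and 6 accessions, the medians were 10.7 and 6.92 FPKM and the change -0.69 (limma adjusted p = 0.786). The first block holds 1 accession from another country and gave no value of its own. With the block as a covariate the change was -0.77 (limma adjusted p = 0.240), and without the first block it was -1.23 (adjusted p = 0.0504). The country change did not differ detectably between the third block and the other two, at 0.36 ± 0.90 (SE) with a limma adjusted p of 0.896, in a test that called 50 genes (0.139%). For the ratio of the rows the difference in the third block was -0.87, with p = 0.0512 by the permutation test, which no longer passes the threshold.

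The genes whose levels followed each row most closely were sought among 29627 genes with a mean of at least 1 FPKM, by Pearson's r on log2(FPKM + 1). These values are descriptions over accessions that share a farm, a harvest and the column blocks. Many genes followed Asa2G00253.1 closely. Its closest gene was Asa6G06411.1 with r = 0.89 (Spearman rho 0.90) over 84 accessions, followed by Asa7G03858.1 (r = 0.89), Asa8G03881.1 (r = 0.87), Asa7G06370.1 (r = 0.87) and Asa4G04018.1 (r = 0.87). None of these lies on chromosome 2 by its ID, and the table gives no name for any of them.

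The likeness held over most of the range of levels and within each block. Asa6G06411.1 ran from 5.49 to 394.5 FPKM with a median of 26.0 FPKM. It had 217.6 FPKM in Sichuan replicate 2 and 394.5 FPKM in Canada replicate 5, the accessions in which Asa2G00253.1 had 239.5 and 226.7 FPKM. At the low end, Gansu replicate 3 had 0.655 FPKM of Asa2G00253.1 but 22.9 FPKM of Asa6G06411.1. Within the first, the second and the third block its r with Asa2G00253.1 was 0.92 (n = 7), 0.82 (n = 16) and 0.88 (n = 61). Among themselves the 5 closest genes had r from 0.81 to 0.91.

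In all, 181 genes had r of at least 0.7 with Asa2G00253.1, of which none was Asa2G00503.1 or had r above 0.22 with it. The count was 109 without the first block, and 1090 genes (3.68%) had r of at least 0.5 over all accessions. All 181 had their highest block median in the first block, as had 28.3% of the 29627 genes. This largely follows from the choice by r, since Asa2G00253.1 itself had its highest block median there. By their IDs the 181 genes were spread over all chromosome numbers, at 0.445% to 0.703% of the genes of each. The genes that ran most against Asa2G00253.1 were Asa4G01438.1 (r = -0.68), Asa3G02152.1 (r = -0.67) and Asa2G02016.1 (r = -0.66).

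Asa2G00503.1 had few close partners. No gene reached r = 0.7 with it over all accessions, and 105 genes (0.354%) reached 0.5. Its closest gene was Asa2G00502.1, the row just before it, with r = 0.69 and a Spearman rho of 0.67. Asa2G00502.1 was listed at 0 in 36 accessions, among them all 7 of the first block, and had a median of 0.430 FPKM and a highest level of 68.3 FPKM, in Hebei replicate 2. In Xinjiang replicate 2, which had the highest level of Asa2G00503.1, it had 55.5 FPKM. In the second block r was 0.84 (n = 16) and in the third 0.65 (n = 61). Whether the 2 genes overlap, or share reads, could not be tested, since the table gives neither coordinates nor strand.

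The other genes closest to Asa2G00503.1 were Asa6G05026.1 (r = 0.66), Asa2G06382.1 (r = 0.66), Asa3G01814.1 (r = 0.65) and Asa7G01349.1 (r = 0.64). They were less alike than the partners of Asa2G00253.1, with r among the 5 closest from 0.35 to 0.73. The gene that ran most against it was Asa0G05905.1 (r = -0.71), followed by Asa4G04433.1 (r = -0.66) and Asa6G05388.1 (r = -0.65). Asa0G05905.1 had a median of 39.95 FPKM and ran from 0 to 197.1 FPKM.

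**Figure D5:**
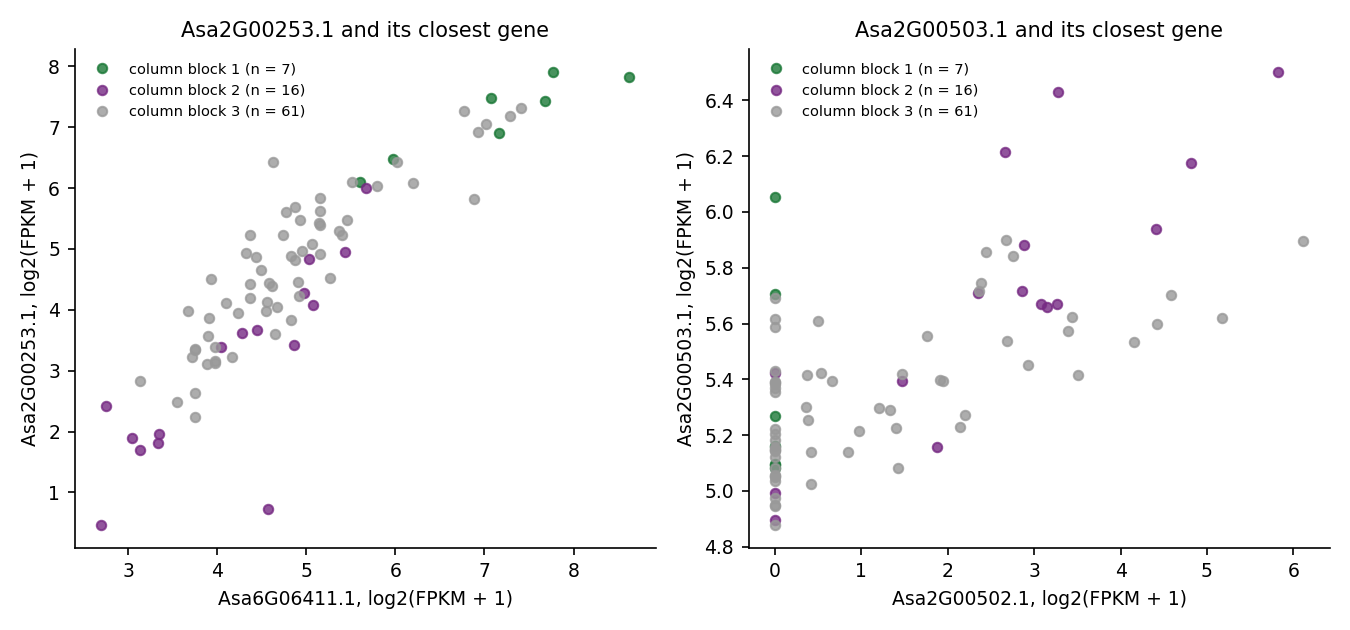
Each row against the gene closest to it, on log2(FPKM + 1) axes with 1 point per accession, coloured by column block. On the left Asa2G00253.1 follows Asa6G06411.1 over most of its range (r = 0.89), and on the right Asa2G00503.1 is plotted against Asa2G00502.1 (r = 0.69), which is listed at 0 in 36 accessions.

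IDs were taken to be numbered along each chromosome, as is usual in genome annotations, and the rows nearest in number were compared next. Of the 10 rows on either side of Asa2G00253.1, 17 of 20 were tested, and their r with it ran from -0.47 (Asa2G00262.1) to 0.61 (Asa2G00247.1) with a median of -0.05. Asa2G00247.1 had 18.02 to 69.9 FPKM in the first block and at most 20.03 FPKM in all others, and its r with Asa2G00253.1 was 0.43 without that block. Around Asa2G00503.1, 11 of 20 rows were tested, and their r ran from -0.28 (Asa2G00500.1) to 0.69 (Asa2G00502.1) with a median of 0.06. For each row 1 neighbour reached an absolute r of 0.5. The levels of neither row were thus shared by its surroundings as a whole.

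The place of the 2 IDs bears on which of them the study describes. The study shows the AXR1-like gene on the same chromosome as the TB1-like gene Asa2G00245.1, but in a separate region a long way further along it. Among the 7533 rows of chromosome 2, Asa2G00253.1 comes 8 rows after Asa2G00245.1, and Asa2G00503.1 another 250 rows later. In ID order Asa2G00253.1 is thus a near neighbour of the TB1-like gene, and of the 2 rows it is Asa2G00503.1 whose place fits a separate region further along. The study's legends also place a gene of higher ID number than both rows further along this chromosome still. Positions it prints there thus rise with ID number. No place was computed from them, and the match is by order, since the table holds no coordinates, sequences or product names that would identify the AXR1-like protein. The other parts of the description, which are genetic groups, haplotypes and clove numbers, are neither in the labels nor in the table. The study lists the group of each accession in its supplement, which was not used here. The levels were therefore not set against these parts. The levels of one row do not stand in for those of the other, since the rows had r = -0.18 over the accessions.

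Other genes that the study names for bud outgrowth and auxin were set beside both rows. These were the TB1-like gene Asa2G00245.1 (TB1 is a TCP transcription factor that represses axillary buds in maize), the YUCCA-like gene Asa2G02184.1 (YUCCA enzymes carry out the last step of auxin synthesis in Arabidopsis) and the TOPLESS-related gene Asa4G00255.1 (TOPLESS is the co-repressor that Aux/IAA proteins recruit). The study chose them partly on these libraries. By limma, 3.67% of all tested genes were called between countries and 0.0442% over the 6 sites. Against Shandong, 1.35% were called for Canada and 0% for the other sites. None of the 3 was called in any of these comparisons, as would be common for 3 genes at such shares. Their log2 changes from China to other countries were -0.11 for the TB1-like gene (adjusted p = 0.805), 0.03 for the YUCCA-like gene (adjusted p = 0.954) and 0.16 for the TOPLESS-related gene (adjusted p = 0.779), beside a median of -0.05 over all tested genes.

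All 3 were expressed at far lower levels than the 2 rows. The TB1-like gene ran from 0 to 6.59 FPKM with a median of 1.55 FPKM, the YUCCA-like gene from 0.207 to 8.53 FPKM with a median of 1.75 FPKM, and the TOPLESS-related gene from 0.586 to 29.3 FPKM with a median of 5.47 FPKM. Over the 84 accessions the TB1-like gene had r = -0.43 with Asa2G00503.1 and r = 0.32 with Asa2G00253.1. Among the 61 accessions of the third block these were -0.47 and 0.09, so the r with Asa2G00253.1 was weaker within this block. The YUCCA-like gene had r = 0.04 with Asa2G00503.1 and -0.32 with Asa2G00253.1 over all accessions, and -0.22 and -0.37 in the third block. The TOPLESS-related gene had r = -0.04 and 0.27 over all accessions, and its r with Asa2G00253.1 was 0.45 without the first block, 0.49 in the third block and -0.17 in the second. The median number of reads in a library was 54 for the TB1-like gene, 13 for the YUCCA-like gene and 59 for the TOPLESS-related gene, so counting error weighs more in these values.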

How the data were processed

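RNA of enlarging bulbs was sequenced on an Illumina platform, with 1 library for each of the 84 accessions. The labels state 3 bulbs per accession, and the study words the pooling and the number of accessions otherwise, which could not be settled here. Reads were aligned by the authors to the garlic genome, for which the submitters' processing notes name HISAT2 2.2.1.0, and the authors deposited FPKM per gene. The program that counted reads was not given in the sources used here, and the use of strand neither. The study lists mapped reads for each accession in its supplement, which was not used here, and the recovered depth was not compared with them. Relative depth and reads per row were recovered from the steps that single reads leave in FPKM, within 0.05 of a whole number. They cover counting error only.

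Values were transformed to log2(FPKM + 1), on which scale the changes of low genes are understated, and genes reaching 1 FPKM in 4 or more of the fitted accessions were tested two-sided in R 4.3.3 by limma 3.58.1, using an intensity trend, Benjamini-Hochberg adjustment over all tested genes and a threshold of 0.05. No covariate was used in the main fits, in keeping with the study's analysis of variance. Accessions of other countries were compared with those of China, and sites with at least 4 accessions with Shandong. A p-value measures the spread among different accessions, treated as independent whatever their relatedness. Single values were compared by permutation tests, which were exact between sites and used 100000 resamples for the ratio of the rows. H' was computed from 10 intervals of 0.5 SD with logarithms to base 2. Spellings of sites follow the labels (Eygpt, Amrica, Yunan), and Xiangjiang was kept apart from Xinjiang.

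Partners were ranked by Pearson's r among genes with a mean of at least 1 FPKM. Named genes were the 2 rows, the 3 study-named genes, the 5 highest and 3 lowest partners of each row, and the neighbours within 10 rows with the highest and lowest r. The rows, lists and tests were chosen with earlier results of these data known. The levels of 60, 100 and 5 FPKM that delimit the tails, and the accessions and partner levels named as examples, were chosen after the values were seen. Alternatives were another pseudocount (0.1), no filter, median-ratio scaling, rescaling to the same sum, untransformed FPKM, the column block as a covariate, analysis of variance without moderation, Xiangjiang counted with Xinjiang, and leaving out each accession. Fits and correlations within column blocks or without the first block were added after seeing the data. The limma script was tested on simulated data. Tables and figures were made in Python 3.11.15 with SciPy 1.17.1, pandas 2.3.3, Matplotlib 3.10.9 and NumPy 2.4.6.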

Additional observations from a re-analysis of the deposited data

Results flagged for a closer look

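In 6 groups of 4 to 10 accessions (Xinjiang, Shanxi, Canada, Henan, Hebei and China without a province), the highest and the lowest accession of each row were examined for a gap to the nearest other accession that takes up an unusually large share of the range of the group (Dixon's criterion). That made 12 groups over both rows. Gaps were taken on the FPKM scale and not on the log2 scale. Chance alone marks about 5% of such groups where values are normally distributed. The levels of Asa2G00253.1 were strongly skewed, so this rate does not hold for it.

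Asa2G00503.1 stood at 89.6 FPKM in Xinjiang replicate 2, and the next accession of the 9 from Xinjiang had 47.4 FPKM. This accession also had 55.5 FPKM of Asa2G00502.1 and 9.67 FPKM of Asa2G00253.1.

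Asa2G00253.1 stood at 226.7 FPKM in Canada replicate 5, and the next of the 5 accessions from Canada had 55.6 FPKM. It is the only accession from another country in the first column block.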

How the results depend on the processing

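Of 130 values of the 2 rows under alternatives other than leaving out an accession, 120 kept their direction and their side of the threshold, and none passed it. The country change of Asa2G00253.1 stayed negative in each, from -1.34 to -0.69 on the log2 scale. Signs turned for small changes, with the cause not tested. In the country comparison Asa2G00503.1 had 0.029 with median-ratio scaling and 0.012 in the first 2 column blocks alone. In FPKM without transformation it had 0.329 for Xinjiang against Shandong, and Asa2G00253.1 had -4.86 for Shanxi and 24.2 for Canada. Median-ratio scaling gave 0.065 for Asa2G00253.1 in Canada and -0.013 for Asa2G00503.1 in Hebei. The block as a covariate gave 0.25 for Asa2G00253.1 in Canada, and -0.064 in Canada and -0.0068 in Hebei for Asa2G00503.1.

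Genes called between countries (1323) became 709 without transformation, 2712 in the third column block, and 0 in the second block or the first 2 blocks. The 15 genes called over 6 sites became 0 with the block as a covariate, and 2 without the first block or with Xiangjiang counted with Xinjiang. The share of genes called for Canada (1.35%) became 2.35% at the same sum, 0.817% untransformed, 0.127% with the block as a covariate, 0.739% with Xiangjiang counted with Xinjiang and 0.836% without the first block, and 2 genes were called for Henan with no filter. The country difference in the ratio of the rows was -0.87 in the third block (permutation p = 0.0512). The SD of log2 of Asa2G00503.1 was 0.39 with median-ratio scaling and 0.26 in the third block. That of Asa2G00253.1 was 1.78 with a pseudocount of 0.1, 1.48 without the first block and 1.25 in the third. The r of Asa2G00503.1 with Asa2G00502.1 was 0.58 with median-ratio scaling and 0.84 in the second block, and gave no value in the first, where Asa2G00502.1 is listed at 0. The r of Asa2G00253.1 with Asa6G06411.1 was 0.92 in the first block and 0.82 in the second.

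Leaving out each accession in turn gave country changes from -0.061 to 0.028 for Asa2G00503.1 and from -1.44 (without Canada replicate 5, adjusted p = 0.0342 by limma) to -0.95 (without the Japan accession) for Asa2G00253.1. The ratio difference ran from -1.42 to -0.94. For Canada the range was -0.074 to 0.26 for Asa2G00503.1 and -0.94 to 0.42 for Asa2G00253.1, for Shanxi -0.17 to 0.28 for Asa2G00253.1, and for Hebei -0.11 to 0.21 for Asa2G00503.1. Counts of genes called ran from 533 (without Greece replicate 2) to 2080 (without the Thailand accession) between countries, from 1 (without Canada replicate 3) to 29 (without Canada replicate 1) over 6 sites, from 0 to 1 for Shanxi, from 0 to 4 for Henan and from 0 to 2 for Hebei, and the share for Canada from 0.328% (without Canada replicate 5) to 3.65% (without Canada replicate 1). No paired analysis was possible because the labels give no replicate numbers, and those used here only name accessions. With 4 or 5 accessions in some sites, the site contrasts limit what can be detected, since a site holds different accessions.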
